A study of Mus musculus with 6 samples.

Results

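The germ cell fate and oocyte regulators examined here are 10 genes, Dazl, Figla, Sohlh1, Sohlh2, Lhx8, Nobox, Nanos2, Nanos3, Stra8 and Prdm1, out of 22367 annotated protein-coding genes. They were chosen by gene name in GENCODE M1 on mm9, and each was scored for the distance from its transcription start sites (TSSs) to the nearest Dppa2 peak. A gene was called Dppa2-bound when a peak midpoint lay within 1000 bp of any of its TSSs. The peaks come from an anti-V5 ChIP-seq of CGR8, a mouse embryonic stem cell (ESC) line grown without feeders in serum and leukemia inhibitory factor. These cells stably expressed Dppa2 with an N-terminal V5 tag from a pPyCAG expression vector, which adds tagged protein to that of the endogenous gene, and stable clones had been selected with puromycin. The control was an anti-V5 ChIP in parental CGR8 cells without the tag. Each condition is 1 library, so no replicate error and no test between conditions can be given. How many reads stand behind each library is unknown from a peak list, and the identity of the cells cannot be checked from it.

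These genes act in the lineage that gives rise to sperm and eggs. Primordial germ cells are set aside early in the embryo, migrate to the gonad and there commit to gamete formation, after which the female cells enter meiosis and build follicles while the male cells become spermatogonia. Many genes used from this commitment onwards have promoters with CpG dinucleotides that are methylated and silent in somatic cells. Dppa2 is itself made in the early embryo and in the developing germ line.

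Of the 10 regulators, 3 were Dppa2-bound: Dazl, Figla and Sohlh2. By the same rule 14.2% of all protein-coding genes were bound, 3169 of 22367 (13.7 to 14.6% by the exact Clopper-Pearson method at 95%, for counting error alone). The interval treats genes as independent, though some share a peak, and does not cover variation between libraries or the peak cutoff. The members were picked with earlier results of these data known and are few, so the count is a description and was not tested. The 3 bound genes lay far inside the limit of 1000 bp, with Sohlh2 the farthest at 102 bp, and the nearest unbound gene, Nanos2, was 17.4 kb from a midpoint. All 3 peaks had scores well above the median of the list.

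**Figure D1:**
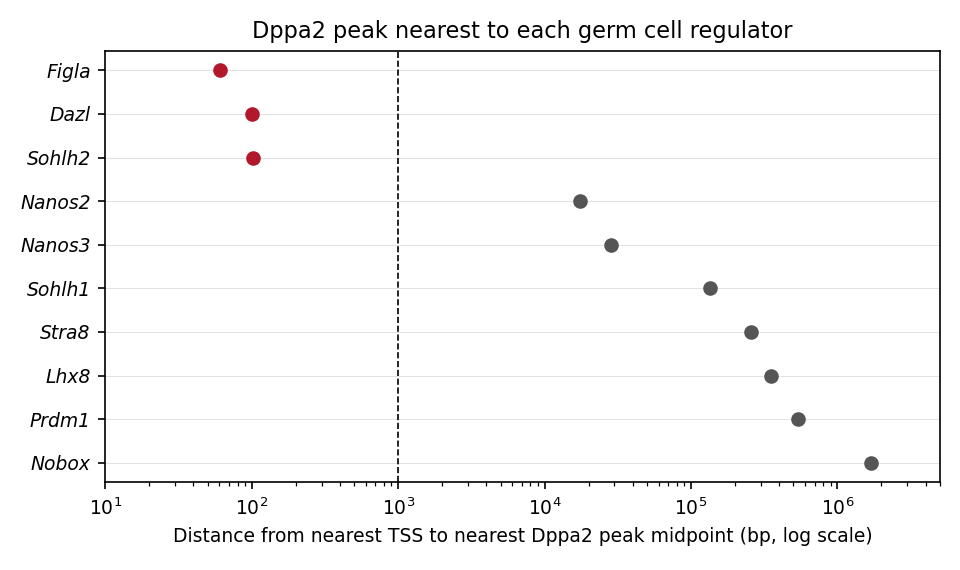
Distance in bp on a log scale from the nearest TSS of each of the 10 genes to the nearest Dppa2 peak midpoint, 1 point a gene, with the limit of 1000 bp as a dashed line. Dazl, Figla and Sohlh2, in red, lie at 61 to 102 bp, and the 7 unbound genes, in grey, lie at 17.4 kb or more.

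The bases just before the TSS are shown for the 3 bound genes, and for Sohlh1, the unbound paralogue of Sohlh2, and Nanos2, the unbound gene closest to a peak, so that the promoters can be compared by eye. Each run is the 250 bases before the most upstream TSS, read 5′ to 3′ in the direction of transcription from mm9, with every CpG in capitals. The runs lie at chr17:50432925-50433174 on the minus strand for Dazl, chr6:85966935-85967184 on the plus strand for Figla, chr3:54985700-54985949 on the plus strand for Sohlh2, chr2:25702769-25703018 on the minus strand for Sohlh1 and chr7:19572623-19572872 on the plus strand for Nanos2. No annotated gene overlaps them.
Dazl: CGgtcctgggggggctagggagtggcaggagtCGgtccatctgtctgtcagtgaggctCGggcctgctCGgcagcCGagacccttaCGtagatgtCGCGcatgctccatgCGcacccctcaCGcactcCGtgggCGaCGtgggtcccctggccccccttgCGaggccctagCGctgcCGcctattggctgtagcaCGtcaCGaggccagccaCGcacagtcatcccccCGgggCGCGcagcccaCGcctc
Figla: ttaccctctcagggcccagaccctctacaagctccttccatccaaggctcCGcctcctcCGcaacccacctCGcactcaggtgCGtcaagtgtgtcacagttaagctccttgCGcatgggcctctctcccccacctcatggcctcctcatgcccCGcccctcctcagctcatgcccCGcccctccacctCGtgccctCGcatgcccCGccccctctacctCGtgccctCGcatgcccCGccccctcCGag
Sohlh2: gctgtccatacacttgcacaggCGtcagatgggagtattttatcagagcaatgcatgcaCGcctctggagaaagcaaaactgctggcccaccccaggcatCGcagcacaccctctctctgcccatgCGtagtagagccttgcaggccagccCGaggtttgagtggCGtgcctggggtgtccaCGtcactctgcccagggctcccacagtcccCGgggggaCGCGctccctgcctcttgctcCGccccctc
Sohlh1: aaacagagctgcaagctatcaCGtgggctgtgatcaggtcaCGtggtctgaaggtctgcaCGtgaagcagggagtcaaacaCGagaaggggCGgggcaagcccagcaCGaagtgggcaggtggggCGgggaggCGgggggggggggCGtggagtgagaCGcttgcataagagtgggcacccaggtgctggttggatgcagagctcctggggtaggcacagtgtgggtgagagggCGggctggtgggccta
Nanos2: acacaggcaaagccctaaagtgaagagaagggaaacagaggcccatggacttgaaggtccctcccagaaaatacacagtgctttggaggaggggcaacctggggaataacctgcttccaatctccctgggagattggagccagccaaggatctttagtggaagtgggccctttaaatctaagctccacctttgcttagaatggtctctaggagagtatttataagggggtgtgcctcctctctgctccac
Dazl had 23 CpGs in these 250 bases, Figla 14, Sohlh2 11, Sohlh1 11 and Nanos2 0. The bound Sohlh2 and the unbound Sohlh1 thus had the same number in these 250 bases. Over the 1000 bp around the TSS the numbers differed, with 44 CpGs at Sohlh2 and 28 at Sohlh1.

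Dazl (ENSMUSG00000010592) encodes an RNA-binding protein that germ cells need to commit to gamete formation. It is transcribed from the minus strand of chromosome 17, between 50418719 and 50432924. Its Dppa2 peak spanned 50431924 to 50433725, which is 1802 bp, and reached from 801 bp upstream to 1000 bp downstream of the first TSS at 50432924. The midpoint was 100 bp downstream of that TSS, in the untranslated part of exon 1. The midpoint was at -607 bp relative to the other annotated TSS, at 50432217, so both starts of the gene were within the limit. Each peak carries a score from MACS, the peak caller, that grows as the p-value against the control becomes smaller, and that of Dazl was 1465. This was rank 16 of the 3336 peaks, whose scores ran from 100 to 3100 with a median of 228. Among the bound protein-coding genes, 8 had a higher score than Dazl.

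The peaks next to Dazl in score were not all at coding genes. The one directly above it, with a score of 1470 and rank 15, was at Tex12, which encodes a protein of the synaptonemal complex. The next above, with a score of 1548, was 1376 bp from the nearest annotated TSS, that of the non-coding transcript Gm11611. Below Dazl came a peak of 1436 nearest to an entry for Kbtbd13 annotated as a pseudogene, and a peak of 1385 nearest to a U6 snRNA. Likeness here is closeness of the score in 1 library and says nothing of shared function.

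Figla (ENSMUSG00000030001) encodes a basic helix-loop-helix (bHLH) factor of the oocyte that is required for follicle formation and for zona pellucida genes. The gene lies on the plus strand of chromosome 6 from 85967185 to 85970990, with 1 annotated TSS. Its peak spanned 85966490 to 85968003, or 1514 bp, with 695 bp before and 818 bp after the TSS. The midpoint was closer to a TSS than for any other of the 10 genes, 61 bp into the gene and within coding sequence of exon 1. The score of 674 gave rank 155.

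Sohlh2 (ENSMUSG00000027794) encodes another germline bHLH factor, which acts in spermatogonia and in growing oocytes. It lies on the plus strand of chromosome 3 from 54985950 to 55013879, again with 1 TSS. The peak spanned 54985368 to 54986736, or 1369 bp, with 582 bp before and 786 bp after the TSS, and its midpoint was 102 bp downstream in intron 1. The score was 511 and the rank 346, the lowest of the 3 bound regulators, and 345 peaks scored higher.

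**Figure D2:**
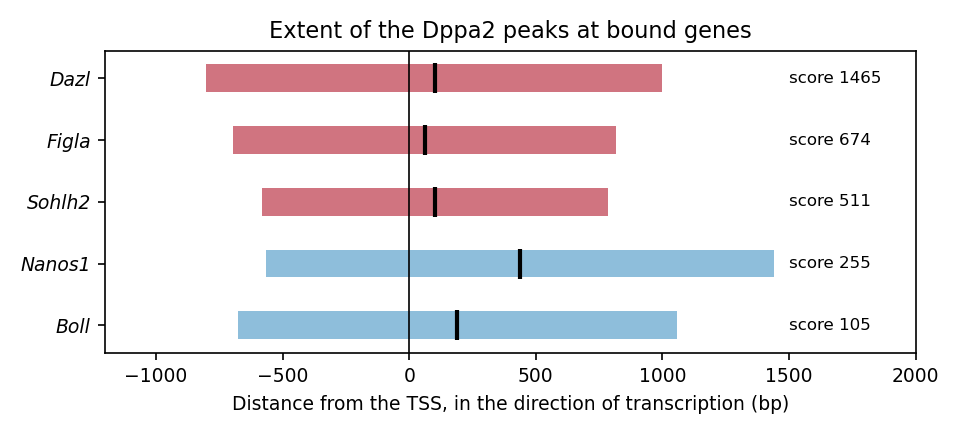
Extent of the Dppa2 peaks in bp from the TSS, in the direction of transcription, for the 3 bound regulators (red) and the bound paralogues Nanos1 and Boll (blue), with a black tick at each midpoint. The 3 red peaks are centred 61 to 102 bp past the TSS, while those of Nanos1 and Boll are centred 436 and 190 bp past it.

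The 3 peaks were alike in position. Their midpoints lay 61 to 102 bp downstream of the TSS, against a median of 121 bp downstream for all bound protein-coding genes with quartiles at -28 and 289 bp. Each peak covered its TSS and extended farther into the gene than away from it. In width the peaks of Figla and Sohlh2, with ranks of 1428 and 1882, were near the median of the list, 1433 bp, while that of Dazl was wider, with rank 792. No other gene had a TSS within 1000 bp of any of the 3 midpoints. None of the 36-base sequences in the peaks, 1767 in Dazl, 1479 in Figla and 1334 in Sohlh2, occurred a second time in mm9 on either strand.

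**Figure D3:**
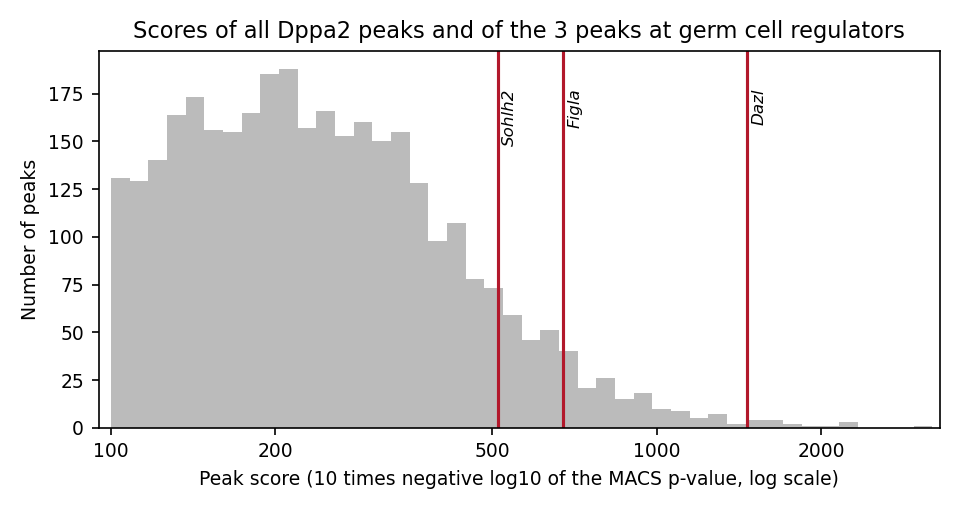
Number of Dppa2 peaks by score on a log axis for all 3336 peaks, with red lines at the 3 peaks of germ cell regulators. Sohlh2 at 511, Figla at 674 and Dazl at 1465 all stand to the right of the median of 228.

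The number of peaks around the bound genes ranged from 1 to 11. All peaks of the list are named after TSSs, so these counts may leave out binding away from TSSs. The Sohlh2 peak was the sole peak within 1 Mb of its TSS, and none of the 12 other protein-coding genes there was bound. The next midpoint was 1720 kb away. Around Dazl there were 2 peaks within 1 Mb, its own included, and 1 of 8 other coding genes was bound. Figla lay in a region with 11 peaks, where 11 of 40 other coding genes were bound. Of all coding genes 14.2% were bound, and these small counts were not tested against that share.

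Among the RNA-binding proteins, Nanos2 and Nanos3 had no peak. Nanos2 (ENSMUSG00000051965), which promotes the male fate of fetal germ cells, lies on the plus strand of chromosome 7 from 19572873 to 19574311. The nearest peak was 17.4 kb downstream, at Irf2bp1, with a score of 112. Nanos3 (ENSMUSG00000056155), needed for the survival of primordial germ cells, occupies 86697632 to 86700451 of chromosome 8, minus strand, and its nearest peak was 28.6 kb downstream at Cc2d1a with a score of 135. Both of these neighbouring peaks had scores below the median of the list. The region of Nanos3 held 18 peaks within 1 Mb, with 19 of 68 other coding genes bound. That of Nanos2 held 9 peaks, with 9 of 75 bound. The share over all coding genes was 14.2%, and the difference was not tested.

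The remaining transcription factors of the oocyte and spermatogonium were also without a peak. Sohlh1 (ENSMUSG00000059625), the partner of Sohlh2, occupies 25698515 to 25702768 of chromosome 2, minus strand, with the nearest peak 136 kb upstream at Camsap1. It had no peak of its own in a region with 21 peaks within 1 Mb. There 20 of 84 other coding genes were bound, against 14.2% of all coding genes, and the difference was not tested. Lhx8 (ENSMUSG00000028201), a LIM-homeobox factor of early oocytes, occupies 153969260 to 153993615 of chromosome 3, minus strand, and the nearest of its 5 TSSs was 351 kb from a peak at Slc44a5. Nobox (ENSMUSG00000029736), an oocyte homeobox factor, occupies 43253673 to 43259561 of chromosome 6, minus strand. It was the farthest of the 10 from any peak, 1702017 bp from a midpoint at Ephb6, and none of the 33 other coding genes within 1 Mb was bound.

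Stra8 and Prdm1 stand at the entry to meiosis and at the origin of the lineage, and neither was bound. Stra8 (ENSMUSG00000029848), induced by retinoic acid before meiosis, lies on the plus strand of chromosome 6 from 34870163 to 34889342. Its nearest peak was 257 kb downstream at Nup205, with a score of 197. Prdm1 (ENSMUSG00000038151), also known as Blimp1 and required to specify primordial germ cells, occupies 44156983 to 44248307 of chromosome 10, minus strand. The nearest peak was 539 kb upstream of its first TSS, at Prep, with a score of 203. Relative to the TSSs of its coding transcripts, the midpoint was at -608539 and -608600 bp. The median distance of the 7 unbound genes was 257 kb, and that of all unbound protein-coding genes was 191 kb. The lowest score in the list is 100, after a filter by the authors on p-value and read number, and all 3336 peaks are named after TSSs. Weaker signal or binding away from TSSs at these 7 genes was therefore not analysed here.

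CpG content was measured over 1000 bp around 1 TSS per gene, as the GC content and as the number of CpGs over that expected from the C and G content. The TSS shared by most transcripts was used, and with ties the most upstream one. The 3 bound regulators had ratios of 0.74 for Dazl, 0.52 for Sohlh2 and 0.43 for Figla, with GC contents of 62.4, 58.0 and 61.9%. At the TSS used, all 3 were below the median ratio of bound protein-coding genes, 0.776. Dazl and Sohlh2 were above that of unbound ones, 0.467, and Figla was below it. Of the bound protein-coding genes, 42.2% had a lower ratio than Dazl, 17.4% a lower one than Sohlh2 and 12.0% a lower one than Figla.

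The 7 unbound regulators ranged from 0.19 for Nanos3 and 0.20 for Nanos2 to 0.61 for Lhx8 and 0.66 for Prdm1. Sohlh1 had 0.35, Nobox 0.36 and Stra8 0.26. Their median ratio was 0.35 and their median GC content 51.9%, against 0.52 and 61.9% for the bound regulators. The ranges of the ratio overlapped, with Lhx8 and Prdm1 above Figla and Sohlh2. In GC content at the TSS used, the unbound genes ran from 45.3% for Prdm1 to 57.0% for Sohlh1, below the bound ones, but other TSSs of Lhx8 had 64.2 and 66.0%, above all 3. Another TSS gave a higher ratio for the bound Dazl and for 3 of the unbound genes. The second TSS of Dazl had a ratio of 0.82, above the median of bound coding genes, 0.776, and a GC content of 60.5%. The coding transcripts of Prdm1 start at TSSs with ratios of 0.86 and 0.88, Lhx8 had a TSS with 0.83, and Stra8 one with 0.53. Prdm1 and Lhx8 thus had start sites with a higher ratio than the 3 bound genes at the TSS used for them, without a peak at any TSS. In number of CpGs per 1000 bp, that TSS of Lhx8 held 85 and those of Prdm1 60. Dazl held 72 at the TSS used and 74 at its second TSS, Sohlh2 held 44 and Figla 39. At the TSS used, all 7 unbound genes held fewer than Figla. These were 37 for Lhx8, 34 for Prdm1, 28 for Sohlh1, 27 for Nobox, 14 for Nanos2, 14 for Stra8 and 13 for Nanos3. Another TSS of Stra8 held 37.

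**Figure D4:**
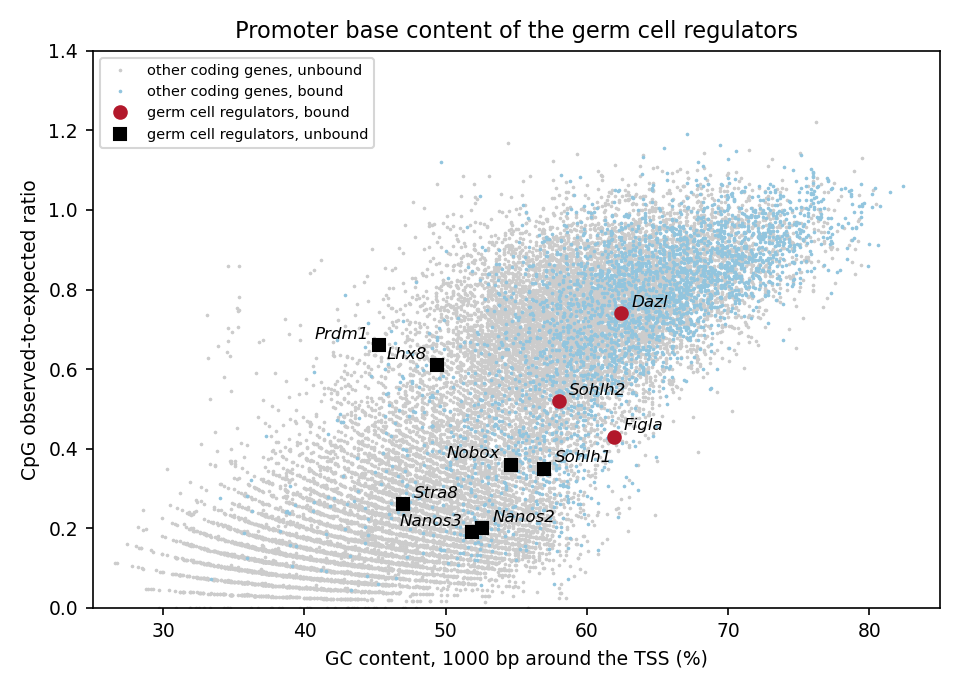
CpG observed-to-expected ratio against GC content in percent over 1000 bp around 1 TSS for protein-coding genes, bound (light blue) and unbound (light grey), with the bound (red circles) and unbound (black squares) regulators named. Dazl at 0.74 lies nearest to the cloud of bound genes, and Figla at 0.43 and Sohlh2 at 0.52 lie below most of it.

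Promoters were also divided into 3 classes by the 500 bp windows between 700 bp before and 200 bp after the TSS. The high class has a window with over 55% GC and a ratio over 0.75, the low class has no window with a ratio over 0.48, and the intermediate class holds the rest. Of all coding genes, 25.6% were bound in the high class, 14.3% in the intermediate class and 4.36% in the low class. The class was taken at the same 1 TSS per gene as the ratio, which for Prdm1 starts no coding transcript. Other TSSs of the regulators were not classed. Among these was a coding TSS of Lhx8 with 64.2% GC and a ratio of 0.83 over 1000 bp. At the TSS used, Dazl was the sole regulator in the high class. Sohlh2 was bound and Sohlh1, Lhx8 and Prdm1 were not in the intermediate class. In the low class Figla was bound and Nobox, Nanos2, Nanos3 and Stra8 were not. The scores of the 3 bound genes were high also within their classes, with 3 of 1997 bound genes above Dazl, 79 of 772 above Sohlh2 and 17 of 400 above Figla. The medians of these classes were 212, 221 and 263.

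Short sequence motifs were searched in the same 1000 bp on both strands. The E-box letters CACGTG, bound by Myc-type and related bHLH dimers, occurred in 3 of the 10 regulators and in 16.9% of all coding promoters. They stood in 18.9% of bound and 16.6% of unbound coding promoters. Dazl had 1, starting 489 bp after the TSS, and Figla 1, starting at -465 bp. The wider Dazl peak held the E-box letters 2 times. Sohlh1, which had no peak, held 3, starting at -231, -211 and -192 bp and visible in the run printed for it, and 0.371% of all coding promoters held 3 or more. Sohlh2 and the remaining unbound regulators had none in this window. The letters GCGGGA, the core of an E2F-type site, were found in 5 of 10 regulators and in 47.2% of all promoters, with Sohlh2 the one bound regulator among the 5. Over all coding genes, 73.3% of bound and 42.9% of unbound promoters held these letters, so that the bound Dazl and Figla, without them in this window, were in the minority of bound genes. The wider Dazl peak did hold these letters, 3 times, and that of Figla did not. The GC-box letters GGGCGG stood in all 3 bound regulators and in 5 of the 7 unbound ones, and in 59.6% of all promoters. Over all coding genes, 87.9% of bound and 54.9% of unbound promoters held the GC-box letters. Figla had 4 of them, starting at -97, -75, -45 and -14 bp, which appear in the printed run in the opposite orientation. The unbound Sohlh1 had 3, and 32.4% of all coding promoters held 3 or more. Matches are descriptions of the sequence and not binding sites.

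Paralogues of the regulators are given by family, and the families were not tested against each other. Nanos1 (score 255, rank 1454) was bound where Nanos2 and Nanos3 were not, and its promoter ratio was 0.85. Boll, the relative of Dazl, was bound with a score of 105 and rank 3265, close to the lowest score kept, where Dazl had rank 16. The ratio at Boll was 0.93, above that of Dazl. None of 11 LIM-homeobox genes related to Lhx8 was bound, and the nearest was Lhx1, 9.09 kb from a midpoint. Of all coding genes 14.2% were bound, and with so few genes the difference was not tested.

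Other germ cell genes were taken from 4 lists by role, of which 67 of 68 symbols matched an annotated gene. Together 10 of the 67 were bound, or 14.9%, close to the 14.2% of all coding genes. In germ cell specification and early germ cells, 5 of 17 were bound. They were the receptor gene Kit with a score of 147 and its ligand gene Kitl with 194, Bmp8b, a signal for germ cell formation, with 244, Smad1, which transmits such signals, with 443, and the germ cell helicase gene Ddx4 with 344. In retinoic acid signalling and meiotic entry 1 of 13 was bound, Aldh1a2, an enzyme of retinoic acid synthesis, with 145. Among spermatogonial genes 3 of 15 were bound, the receptor gene Ret with 196, Taf4b, a subunit of a general transcription complex, with 132 and Pou3f1 with 198. Of 22 oocyte genes 1 was bound, Zar1, with 206, and the zona pellucida genes Zp1, Zp2 and Zp3, the growth factors Gdf9 and Bmp15 were among those that were not. The highest of these 10 scores, 443 at Smad1, was below that of each of the 3 bound regulators.

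**Figure D5:**
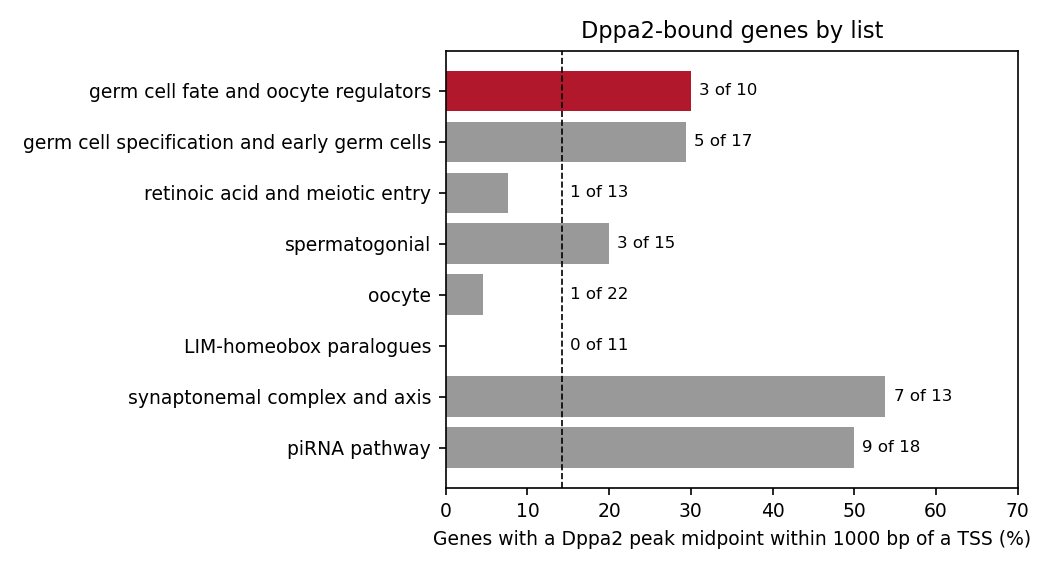
Percent of the genes of each list with a Dppa2 peak midpoint within 1000 bp of a TSS, with the number bound beside each bar and the 14.2% of all protein-coding genes as a dashed line. The 10 regulators are in red, and the lists were not tested against each other.

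Genes of the meiotic chromosome axis and of the piRNA pathway, which silences transposons in germ cells, are set beside these for comparison. In the synaptonemal complex and axis list 7 of 13 were bound, with scores up to 1470 at Tex12, and in the piRNA list 9 of 18, with scores up to 1691 at Mov10l1. Sycp1, a component of the synaptonemal complex, had 1059. Scores of the other bound genes of the axis list were 785 at Syce1, 369 at Hormad1, 340 at Sycp2, 139 at Sycp3 and 125 at Stag3, whose peak also lay within 1000 bp of a TSS of Gpc2. In the piRNA list Tdrd1 had 457, Gpat2 313, Mael 302, Piwil1 301, Tdrkh 262, Tdrd6 207 and Mybl1 146, besides Ddx4. The scores of Dazl, Figla and Sohlh2 fell within the range of both lists. The share over all coding genes was 14.2%. Whether the share of bound genes differs between these lists, the regulators and all coding genes was not tested.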

How the data were processed

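Anti-V5 ChIP-seq of V5-Dppa2 ESCs was analysed from the deposited peak list of 1 library, and the other 5 samples of the series were not analysed here. The deposited score comes from MACS, as run by the authors, and is a scaled negative logarithm of each peak's p-value, with no unit of its own. Low-complexity reads had been discarded, the alignment to mm9 used Bowtie 0.12.7 with the best match reported, and duplicates had been removed. Peaks from MACS 1.4.2 were then filtered on p-value and read number, so the list leaves out weaker signal. The submitters' processing notes also list Picard 1.81.

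The start of each interval was read as 0-based. Midpoints were set against TSSs of all GENCODE M1 transcripts, and NCBIM37, the same build as mm9, gave the sequence. No summits are given, so the midpoint was used. No test was planned or run, because there is 1 library. All 10 members were named, with bound genes of the lists, paralogues, genes sharing a peak, and the peaks next above and below Dazl in score. The result for 1 list of paralogues is not reported here. The members and lists were chosen with earlier results of these data known. The promoter classes and the GC-box were chosen with the data in view. Distances, base content and motif positions were tested on simulated data. Python 3.11.15, numpy 2.4.6, pandas 2.3.3, scipy 1.17.1, pysam 0.24.0 and matplotlib 3.10.9 were used.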

Additional observations from a re-analysis of the deposited data

How the results depend on the processing

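The 3 bound regulators stayed bound and the 7 others stayed unbound under each of the 8 alternatives for peaks, windows and TSSs. These were a score of at least 200, windows of 500, 2000 and 5000 bp, any base of the peak and 1 TSS per gene. TSSs of protein-coding transcripts and peaks merged over gaps of up to 1000 bp were the others. None of the 8 alternatives could change a call, so the agreement was fixed in advance. Figla and Sohlh2 have 1 TSS each, both TSSs of Dazl lay within the limit, and fewer TSSs cannot bring a peak closer. The second nearest midpoint was 178 kb or more from each bound gene, so merging peaks had nothing to join there. Bound genes lay within 102 bp of a midpoint with scores of 511 or more, and unbound ones at 17.4 kb or more. The list starts at a score of 100, so no setting could show weaker binding. The share of all coding genes bound moved by construction, to 8.06% at a score of at least 200, 12.6% with 500 bp, 15.5% with 5000 bp and 13.5% with 1 TSS per gene. At a score of at least 200, 4 of the 10 bound related germ cell genes were left, and 1977 of all 3336 peaks. The difference was not tested. The median CpG ratio of the bound regulators was 0.51 over 500 bp and 0.48 over 2000 bp, and that of the unbound ones 0.36 and 0.33. With the TSS of the highest ratio in each gene, an alternative chosen after seeing the data, the median of the unbound ones was 0.36. In 300 bp around the TSS, 0 regulators held the E-box letters and 0 the E2F-type letters. Of all coding promoters, 7.17% held the E-box letters and 27.2% the E2F-type letters in this window. The E2F-type letters stood in 44.9% of bound coding promoters. The GC-box letters stood in 5 regulators, 2 of them bound. They stood in 45.6% of all coding promoters and in 71.8% of bound ones. Differences between these shares and the 10 regulators were not tested. No paired analysis was possible because no group has a replicate, and none could be left out in turn. Depth is unknown, so how many weaker peaks were missed cannot be given.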
